A study of Mus musculus with 12 samples.

Results

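Epithelial and mesenchymal identity genes were followed as mouse embryonic stem cells (ESCs) became epiblast-like cells (EpiLCs). The genes were listed by name and no value entered the rule, though earlier results of these data were known. It comprised 10 of the 51467 genes in the table: the cadherins Cdh1 and Cdh2, the adhesion molecule Epcam, the keratins Krt8 and Krt18, the intermediate filament gene Vim, and the transcription factors Snai1, Zeb1, Zeb2 and Twist1. Gene identifiers were matched to symbols through the GENCODE mouse annotation, and all 10 were found. The study set nascent against total RNA to separate the shares of transcription and mRNA stability in the changes of this transition, and the same comparison is made here for these genes.

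ESCs were cultured with serum (15%), the cytokine LIF, and the 2i pair, the MEK inhibitor PD0325901 and the GSK3 inhibitor CHIR99021. EpiLCs came from ESCs of this kind, collected about 56 h after LIF and 2i were withdrawn. The study's methods name 1 line for this differentiation, V6.5 ESCs with miR290-mCherry and miR302-GFP reporters. Cells of all groups received 500 µM 4-thiouridine (4sU), a uridine analogue, for 30 min. One portion of each RNA was depleted of ribosomal RNA (total RNA), and from the other the biotinylated 4sU RNA was captured on streptavidin (nascent RNA). Each of the 4 groups, ESC or EpiLC by nascent or total, had 3 libraries, 12 in all. The study calls its replicates biological, but the labels do not say whether these were separate cultures, so p-values measure the spread between these samples, which may be technical.

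Epithelial cells hold together through E-cadherin, the product of Cdh1, whose cytoplasmic tail binds catenins at adherens junctions, and their cytoplasm is spanned by paired keratin filaments. Mesenchymal cells carry vimentin filaments and often N-cadherin, the product of Cdh2. In the epithelial to mesenchymal transition (EMT), factors of the SNAIL, ZEB and TWIST families lower epithelial genes, and SNAIL and ZEB proteins do so by binding short E-box sequences such as that of the Cdh1 promoter. Naive ESCs and the epiblast that follows them are both epithelial in character and express E-cadherin.

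Nascent libraries held 3097693 to 5385644 counted reads and total libraries 9300845 to 21975684. The cell labels held for markers in total RNA: 6 of 6 naive ESC genes fell and 5 of 5 EpiLC genes rose. Both ESC libraries numbered 3 stood apart from the other ESC libraries on the third principal component, which held 2.35% of the variance, and member calls that rest on them are given with and without them. The summed level of 10 fibroblast markers was 53.3 to 80.2 CPM in ESC total RNA and 65.0 to 68.4 in EpiLC total RNA, with Col5a1 as the main part. Of the others, Fap had 0 reads and Postn and Lum at most 1 in any library. In total RNA the ESC and EpiLC means were 0 and 4.84 CPM for Dcn, 0.158 and 4.28 for Col1a2, 0.0169 and 0.633 for Col3a1, 0.653 and 1.85 for Col1a1, 3.49 and 5.43 for Thy1, and 8.58 and 2.03 for Pdgfrb. The part of such RNA in the values below was not tested.

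In total RNA, 5 of the 10 genes were called higher in EpiLCs, Epcam, Krt8, Krt18, Zeb2 and Twist1, and 1, Zeb1, was called lower. A call needed a Benjamini-Hochberg adjusted p under 0.05 over all genes tested and an absolute log2 fold change over 1 in limma-voom. Among all 14731 genes tested, 16.3% were called higher and 11.2% lower by the same rule. Of the 4 epithelial genes 3 rose and none fell, and of the 6 mesenchymal genes and EMT factors 2 rose, 1 fell and 3 were not called. All 10 passed the filter of at least 3 CPM (reads of a gene scaled to a fixed library total) in at least 3 libraries. Zeb2 passed only through EpiLC libraries (4, with 1 ESC library at 3 CPM), so its direction is tied to the filter. Snai1 passed only through nascent libraries, so its total level against its nascent level is tied to the filter. In bulk RNA, fewer cells expressing a gene and less RNA per cell cannot be told apart.

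**Figure D1:**
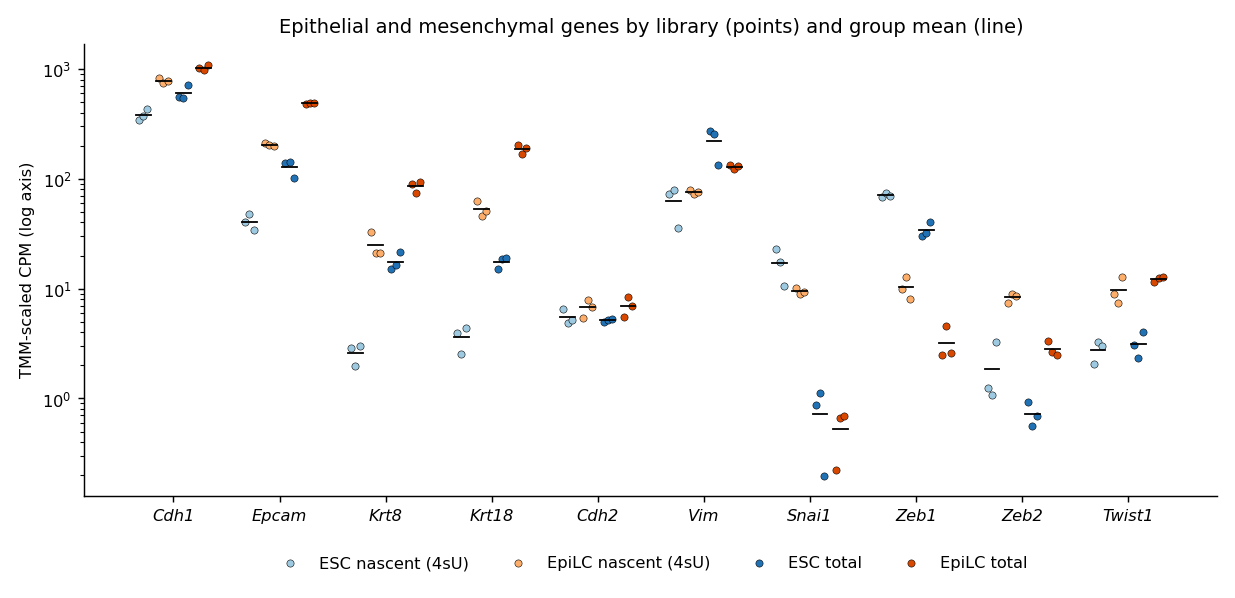
TMM-scaled CPM (log axis) of each gene in all 12 libraries, with points for libraries and lines for group means of 3. Krt18 lies between 15.1 and 19.0 CPM in ESC total RNA and between 168 and 203 in EpiLC total RNA, Zeb1 moves the other way, and the points of Cdh2 stay between 4.86 and 8.38 CPM throughout.

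Cdh1 (chr8:106603351-106670246, plus strand, mm10, as are all gene positions here) had the highest mean level per kb of exon of the 10 genes in ESCs. Its level, in CPM after TMM scaling (trimmed mean of M values, a correction for library composition), was 552, 543 and 719.5 in ESC total RNA and 1016, 967 and 1095 in EpiLC total RNA for replicates 1, 2 and 3. All EpiLC libraries were above all ESC libraries. The total RNA difference was 0.78 ± 0.10 on the log2 scale (SE; 95% interval 0.56 to 1.00), a fold of 1.72 with adjusted p = 1.25e-05 in limma-voom, so it passed on p and fell short of the fold required for a call. Nascent Cdh1 was 346, 369 and 435 CPM in ESCs and 821, 742 and 779.8 CPM in EpiLCs. That difference of 1.04 ± 0.11 (adjusted p = 4.07e-06) was called, close to the limit. The call was lost without ESC 4sU replicate 1, at 0.97, or without EpiLC 4sU replicate 1, at 1.00.

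Epcam (chr17:87635979-87651106, plus strand) encodes a transmembrane adhesion molecule of epithelia. It had 139.8, 140.7 and 102 CPM in ESC total RNA and 483, 491 and 488 CPM in EpiLC total RNA. The 3 EpiLC values lay close together and far above each ESC value. Epcam rose 3.84-fold (log2 1.94 ± 0.11, adjusted p = 1.51e-09) in total RNA. In nascent RNA it went from 40.7, 47.3 and 34.1 CPM to 212, 202 and 197 CPM, a rise of 4.97-fold (log2 2.31 ± 0.14, adjusted p = 1.96e-08).

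Cdh2 (chr18:16588877-16809246, minus strand) was low in all groups. It had 5.01, 5.21 and 5.34 CPM in ESC total RNA and 5.50, 8.38 and 6.99 CPM in EpiLC total RNA. These ranges did not overlap, though EpiLC replicate 1 lay just above the ESC libraries. The difference of 0.42 ± 0.17 (adjusted p = 0.0411) was short of a call. Its adjusted p was 0.144 in DESeq2 and 0.0686 in edgeR's quasi-likelihood test. In limma-voom it ran from 0.0116 to 0.232 as each library was left out. Nascent Cdh2 was 4.86 to 6.58 CPM in ESCs and 5.45 to 7.88 CPM in EpiLCs, overlapping ranges, with a difference of 0.28 ± 0.26 (adjusted p = 0.384). At 19 to 37 reads per nascent library, its 95% interval reached from -0.28 to 0.84.

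Krt8 and Krt18, the keratins of simple epithelia, form filaments as an obligate pair of a type II and a type I chain. Krt8 (chr15:101996711-102004342, minus strand) had 15.1, 16.3 and 21.3 CPM in ESC total RNA and 89.6, 73.6 and 92.8 CPM in EpiLC total RNA. Krt18 (chr15:102028216-102032026, plus strand) had 15.1, 18.6 and 19.0 CPM in ESC total RNA and 203, 168 and 190.5 CPM in EpiLC total RNA. No EpiLC library of either gene came near an ESC library. Krt8 rose 4.98-fold (log2 2.32 ± 0.14, adjusted p = 3.67e-09). Krt18 rose 10.7-fold (log2 3.42 ± 0.12, adjusted p = 2.51e-11), the largest rise of the 10 genes in total RNA. The starts of the pair lie 23.9 kb apart and point away from each other.

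Both keratins rose in nascent RNA as well. Krt8 went from 2.88, 1.98 and 3.00 CPM in ESCs to 32.9, 21.3 and 21.2 CPM in EpiLCs, a rise of 9.44-fold (log2 3.24 ± 0.40, adjusted p = 1.14e-05). Krt18 went from 3.91, 2.52 and 4.36 CPM to 63.0, 45.6 and 50.4 CPM, a rise of 15.0-fold (log2 3.91 ± 0.31, adjusted p = 2.05e-07). The ESC values rested on 11 to 14 reads per library for Krt8 and 14 to 19 for Krt18. The table also lists a Krt8 pseudogene, and only uniquely aligned reads were counted, so keratin values are uncertain by the reads that match such copies. Trophectoderm, which also carries these keratins, was read by 5 markers whose summed level was 2.53 to 5.53 CPM in ESC and 1.81 to 3.81 in EpiLC total RNA. For 7 primitive endoderm markers it was 4.78 to 9.39 and 9.98 to 12.7 CPM, and their part in the keratin values was not tested.

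E-boxes of the letters CAGGTG or CACCTG, reverse complements of each other and the kind that SNAIL and ZEB proteins bind, were looked for in RefSeq promoter windows (GRCm38.p6, 250 bases before to 50 after each start). Windows were examined for 7 of the 10 genes, named under the processing of the data. The E-cadherin gene was not among them. An E-box was found in 4 of these 7, among them Epcam, Krt18 and Snai1. Of all 32851 windows 20.2% held one, and of all 27025 genes with a window 22.6% had it in at least one. These counts took each window whole, so a match before a RefSeq start can lie inside the gene in GENCODE M21. A match is a description of letters and says nothing of binding. The stretches before the starts of Krt18 (chr15:102027966-102028179, plus strand) and Epcam (chr17:87635729-87635978, plus strand) are shown as examples with a match, with the E-box in capitals. The Krt18 stretch leaves out the last 36 bases before the start, which lie inside the gene in GENCODE M21. That of Snai1 (chr2:167538057-167538086, plus strand) is shown as 30 bases around the match, 5′ to 3′.
Krt18: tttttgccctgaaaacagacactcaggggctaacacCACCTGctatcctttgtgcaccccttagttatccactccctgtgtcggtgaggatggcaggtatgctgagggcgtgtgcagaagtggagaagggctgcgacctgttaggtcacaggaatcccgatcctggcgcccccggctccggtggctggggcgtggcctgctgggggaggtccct
Epcam: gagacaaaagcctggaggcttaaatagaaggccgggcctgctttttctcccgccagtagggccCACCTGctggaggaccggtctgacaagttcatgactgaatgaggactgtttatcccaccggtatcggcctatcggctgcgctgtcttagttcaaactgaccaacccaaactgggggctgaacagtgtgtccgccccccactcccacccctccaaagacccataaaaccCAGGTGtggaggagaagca
Snai1: gcagcccaggcgCACCTGctccggtctcag

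The E-box began 214 bases before the start in Krt18 and 126 in Snai1. Epcam had a pair, CACCTG at 187 and CAGGTG at 19 bases before its start.

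Vim (chr2:13573952-13582826, plus strand) encodes vimentin, the filament protein of mesenchymal cells. It had 270.5, 255 and 132 CPM in ESC total RNA and 133, 123 and 131 CPM in EpiLC total RNA. Replicates 1 and 2 of the ESCs were high, while replicate 3 lay among the EpiLC values. The total RNA difference was -0.72 ± 0.24 (adjusted p = 0.0162), short of a call. Nascent Vim was 73.2, 79.3 and 35.4 CPM in ESCs, again low in replicate 3, and 78.6, 72.0 and 76.3 CPM in EpiLCs, a difference of 0.31 ± 0.31 (adjusted p = 0.429). Without ESC total replicate 3 the total RNA difference was -1.03 and was called (adjusted p = 2.42e-05), and without both ESC libraries numbered 3 it was -1.03 (adjusted p = 5.83e-12) while the nascent difference was -0.02 (adjusted p = 0.895).

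Snai1 (chr2:167538195-167542814, plus strand) encodes the zinc-finger repressor SNAIL. It was far more visible in nascent than in total RNA. Nascent Snai1 was 23.0, 17.4 and 10.6 CPM in ESCs and 10.2, 8.95 and 9.24 CPM in EpiLCs, with each ESC library above each EpiLC library. The nascent difference of -0.82 ± 0.31 (adjusted p = 0.0372) was short of a call, and without ESC 4sU replicate 3 it was -1.06 and was called (adjusted p = 0.00496). Total Snai1 was 0.874, 1.11 and 0.198 CPM in ESCs and 0.224, 0.667 and 0.699 CPM in EpiLCs, overlapping ranges resting on 2 to 22 reads. A change of total Snai1 was not detectable at this depth (-0.41 ± 0.70, adjusted p = 0.623, 95% interval -1.91 to 1.08).

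Zeb1 and Zeb2 encode zinc-finger homeodomain proteins of 1 family. Their estimates had opposite signs, though the direction of Zeb2 is tied to the filter, which it passed only through EpiLC libraries. Zeb1 (chr18:5591860-5775467, plus strand) had 30.3, 31.9 and 40.0 CPM in ESC total RNA and 2.47, 4.57 and 2.60 CPM in EpiLC total RNA. Zeb1 fell 10.5-fold (log2 -3.40 ± 0.24, adjusted p = 1.65e-08), the only member called lower. In nascent RNA it went from 68.0, 74.3 and 68.9 CPM to 9.95, 12.8 and 8.05 CPM, a fall of 6.77-fold (log2 -2.76 ± 0.22, adjusted p = 1.6e-07).

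Zeb2 (chr2:44983632-45117395, minus strand) had 0.932, 0.556 and 0.692 CPM in ESC total RNA and 3.36, 2.67 and 2.498 CPM in EpiLC total RNA. Zeb2 rose 3.86-fold (log2 1.95 ± 0.33, adjusted p = 0.000132), from 7 to 16 reads per ESC library to 25 to 30 per EpiLC library. Nascent Zeb2 was 1.23, 1.08 and 3.27 CPM in ESCs, highest in replicate 3, and 7.34, 8.95 and 8.65 CPM in EpiLCs. That rise was 5.09-fold (log2 2.35 ± 0.36, adjusted p = 8.02e-05). The direction of both Zeb2 rises is tied to the filter.

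Twist1 (chr12:33957671-33959829, plus strand) encodes a basic helix-loop-helix factor of mesoderm and neural crest. It had 3.09, 2.33 and 4.05 CPM in ESC total RNA and 11.4, 12.4 and 12.7 CPM in EpiLC total RNA. The EpiLC libraries were close to each other and all above the ESC libraries. Twist1 rose 4.13-fold (log2 2.05 ± 0.20, adjusted p = 4.39e-07) in total RNA, and 3.33-fold (log2 1.73 ± 0.33, adjusted p = 0.000562) in nascent RNA, from 2.06, 3.24 and 3.00 CPM to between 7.46 and 12.8 CPM in EpiLCs. For 6 markers of primitive streak and mesoderm the summed level was 10.7 to 25.5 CPM in ESC and 20.9 to 32.6 in EpiLC total RNA, and 18.5 to 28.1 and 47.5 to 102.8 in nascent RNA. Of these, Eomes held most of the sum, T went from a mean of 1.68 to 7.40 CPM in total and from 0.976 to 15.2 in nascent RNA, and their part in the Twist1 values was not tested.

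**Figure D2:**
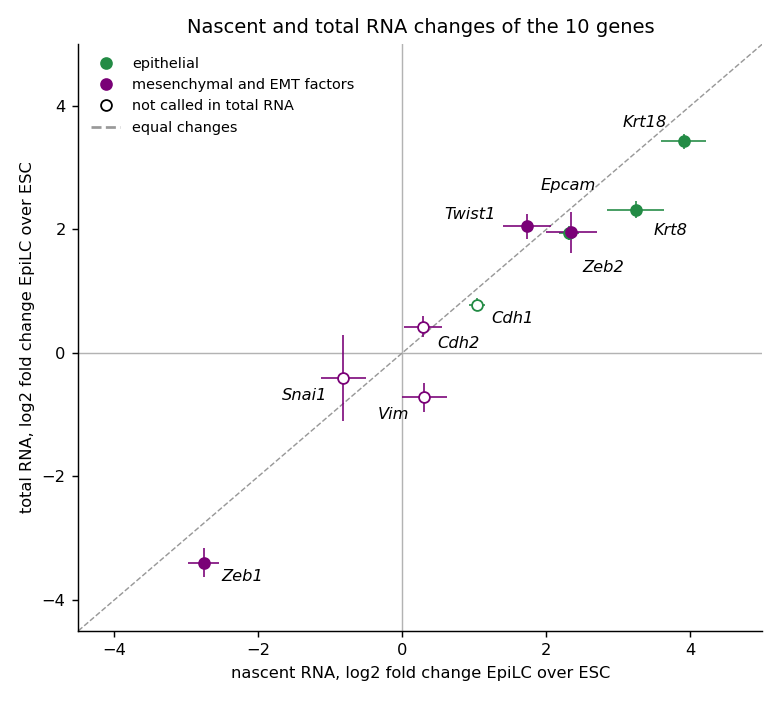
Log2 fold change of EpiLCs over ESCs in nascent (x) and total RNA (y) for the 10 genes, with SE as bars, filled where called in total RNA. The 6 genes called in total RNA have the same sign on both axes, and Vim is the gene whose estimates have opposite signs, 0.31 nascent and -0.72 total (-0.02 and -1.03 without both ESC libraries numbered 3).

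Compared per kb of exon, total RNA levels in ESCs ran in the order Cdh1, Vim, Epcam, Krt18, Krt8, Zeb1, Twist1, Cdh2, Snai1 and Zeb2. Cdh1 had 137 ± 22.4 CPM per kb (SD, n = 3) and Zeb2 had 0.0635 ± 0.0166. The libraries of Cdh1 and Vim overlapped, as did those of Vim and Epcam, and those of Krt18 and Krt8. In EpiLC total RNA the order was Epcam (239 ± 1.93 CPM per kb), Cdh1 (232 ± 14.6), Krt18, Vim, Krt8, Twist1, Cdh2, Zeb1, Snai1 and Zeb2. There Epcam and Cdh1 overlapped, Zeb1 overlapped Snai1, and Snai1 overlapped Zeb2. Zeb1 had 5.87 ± 0.89 CPM per kb in ESCs, above Twist1 and Cdh2, and 0.553 ± 0.20 in EpiLCs, below both. In nascent RNA Snai1 stood higher in the order, in ESCs at 10.5 ± 3.83 CPM per kb, beside Zeb1 at 12.1 ± 0.58, with overlapping libraries.

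Ratios of levels per kb between partner genes within a library were compared between the cell types. Krt18 over Krt8 was 1.30 ± 0.16 in ESC total RNA and 2.83 ± 0.16 in EpiLC total RNA (SD, n = 3). The keratins summed over Vim went from 0.256 ± 0.14 to 3.07 ± 0.19. Zeb1 over Zeb2 went from 97.1 ± 28.5 to 2.29 ± 0.99, and the Zeb2 part of this change is tied to the filter. For these 3 ratios the ESC and EpiLC libraries did not overlap in total or nascent RNA. Cdh1 over Cdh2 was 130.2 ± 18.2 in ESCs and 170.3 ± 39.1 in EpiLCs, overlapping in total RNA. Of 8 such comparisons (4 ratios in each kind of RNA, log2 scale, two-sided exact permutation test), 7 gave p = 0.1, the smallest that 3 libraries against 3 allow, and Cdh1 over Cdh2 in total RNA gave p = 0.2 (Benjamini-Hochberg adjusted 0.114 and 0.2).

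**Figure D3:**
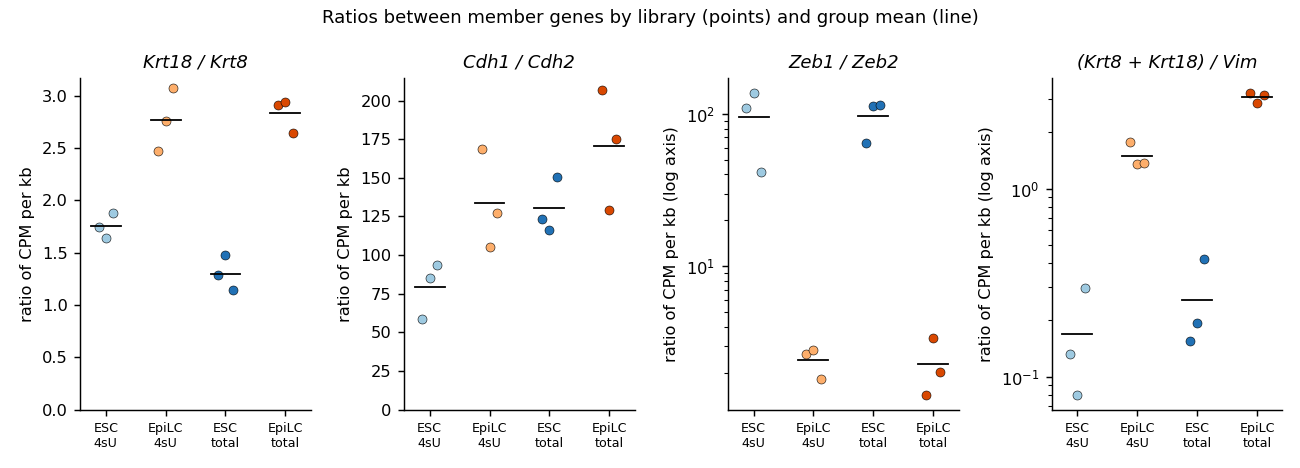
Ratios of CPM per kb between member genes in each library (points; lines are means of 3), with log axes for the Zeb1 over Zeb2 and keratin over Vim panels. Krt18 over Krt8 and keratins over Vim are higher in all EpiLC libraries, Zeb1 over Zeb2 is lower in all of them, and Cdh1 over Cdh2 overlaps between cell types in total RNA.

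In nascent RNA, 6 of the 10 genes were called higher, those called higher in total RNA and Cdh1, and 1, Zeb1, was called lower. Zeb2 was among the 6, with its direction tied to the filter as in total RNA. Of all genes tested, 11.9% were called higher and 13.5% lower in nascent RNA. All 4 epithelial genes rose in nascent RNA. Their median log2 change was 2.78, against 2.13 in total RNA, where the medians of all genes tested were -0.09 and 0.02.

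The relative stability of each mRNA was read as log2 of total over nascent RNA, and its change as the total RNA difference minus the nascent difference, the interaction in the model. None of the 10 genes was called for this change in limma-voom on all 12 libraries without replicate block or sample weights. There 1.24% of all genes were called higher and 0.305% lower. The smallest unadjusted p-values of the members in limma-voom were 0.0199 for Vim and 0.0459 for Krt8. The share of all genes under 0.05 was not taken, and Krt8 rests on 11 to 14 reads per nascent ESC library. Alternative limma-voom fits called Vim, as given below. DESeq2 called 1, Krt8, and edgeR's quasi-likelihood test called 0. Across all genes the split of calls depended on the scaling, with 182 higher and 45 lower under TMM and 132 higher and 66 lower under median-of-ratios scaling. The 182 also turned on single libraries, with 573 without ESC total replicate 3 and 72 to 90 without any 1 of ESC total replicates 1 and 2 or the EpiLC libraries. It was 672 without both ESC libraries numbered 3 and 738 with sample quality weights.

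The estimate was below 0 for 7 of the 10 genes, including all 4 epithelial ones. The share of all genes below 0 was not taken. The median of all genes was 0.11 under TMM and 0.03 under median-of-ratios scaling. For Vim the estimate was -1.02 ± 0.39 (adjusted p = 0.136). For Krt8 it was -0.92 ± 0.42 (adjusted p = 0.209), and -1.09 with adjusted p = 0.0345 in DESeq2. Vim again turned on the ESC libraries numbered 3. Without ESC total replicate 3 its stability estimate was -1.33 and was called (adjusted p = 0.00365), and without both ESC libraries numbered 3 it was -1.01 and was called (adjusted p = 5.23e-06). For Cdh1 the interaction was -0.26 ± 0.15 (adjusted p = 0.35), so its nascent and total changes, called in one and short of a call in the other, were not shown to differ.

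In ESCs log2 of total over nascent was 2.70 ± 0.38 for Krt8, 2.31 ± 0.31 for Krt18, 1.79 ± 0.27 for Vim and 1.63 ± 0.14 for Epcam, at the percentiles 98.8, 97.0, 91.9 and 89.4 of all genes tested. Cdh1 lay at 0.65 ± 0.11, Twist1 at 0.07 ± 0.32 and Cdh2 at -0.11 ± 0.22. The ZEB factors were lower, at -1.08 ± 0.12 for Zeb1 and -1.16 ± 0.42 for Zeb2, with percentiles of 26.1 and 24.8. Snai1 was lowest at -4.55 ± 0.47, the percentile 1.73. It passed the filter only through nascent libraries, so its low place in both cell types is tied to the filter. In EpiLCs Krt18 and Krt8 led at 1.83 ± 0.13 and 1.77 ± 0.18, the percentiles 92.6 and 92.0, and Snai1 was again lowest at -4.14 ± 0.60, the percentile 0.604.

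**Figure D4:**
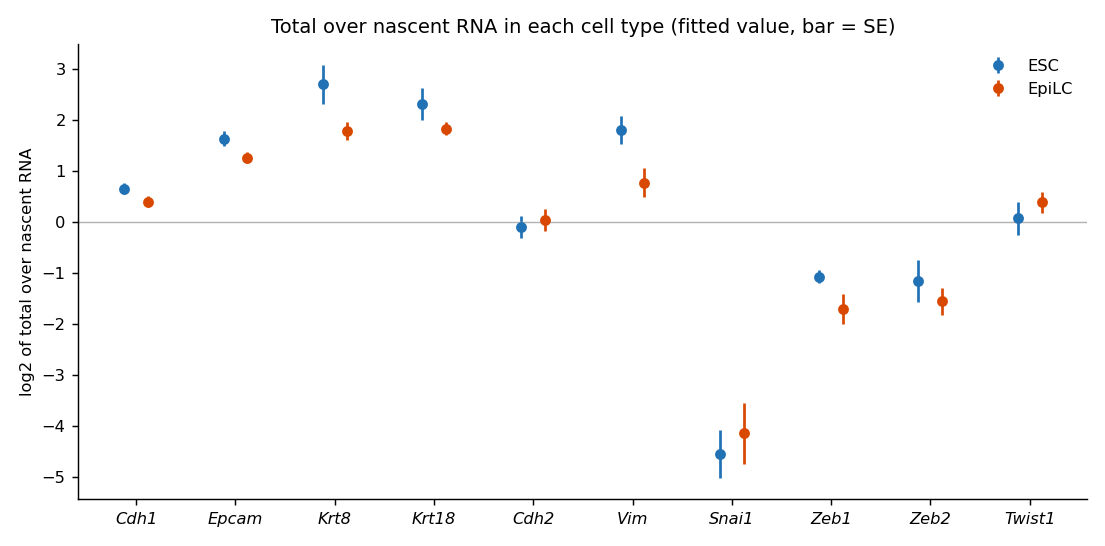
Fitted log2 of total over nascent RNA for each gene in ESCs and EpiLCs, with SE as bars. The keratins are highest in both cell types, and Snai1, which passed the filter only through nascent libraries, lies below -4 in both. In EpiLCs 7 of the 10 genes have the lower value, and the share of all genes that do was not taken. No difference was called in limma-voom on all 12 libraries without replicate block or sample weights.

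Other genes of the same programmes were read from 6 lists of 95 genes, of which 73 were tested. In total RNA 40 were called higher, 8 lower and 25 not called, where 16.3% of all genes tested were called higher and 11.2% lower with a median log2 change of 0.02. The lists were chosen with results known, so these counts describe them only. In the list of adherens junction and desmosome genes, which anchor cadherins to the cytoskeleton, 6 of 15 tested rose and 0 fell, with a median log2 change of 0.54. Without ESC total replicate 3, or without both ESC libraries numbered 3, 4 rose. The rises were led by Dsc2, a desmosomal cadherin (2.64 ± 0.16), Pkp2, a desmosomal plaque protein (2.11 ± 0.13), and Vcl, which links junctions to actin (1.36 ± 0.08; adjusted p at most 5.13e-09 for the 3 genes). Of the other cadherins 4 of 5 tested rose, with a median of 2.08. Cdh3, P-cadherin, went from 27.5 ± 8.88 to 109 ± 1.92 CPM in total RNA (SD, n = 3), and Cdh10 from 0.470 ± 0.12 to 11.4 ± 0.96 CPM. Cdh12 had a mean of 0.0169 CPM in ESC total RNA and 3.13 ± 1.22 CPM in EpiLC total RNA.

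Of the 21 genes tested from the epithelial programme, 15 rose, 2 fell and 4 were not called, with a median of 1.98. Among the largest rises were Esrp1, an epithelial splicing regulator (5.02 ± 0.15, adjusted p = 6.77e-12), and Marveld3, a tight junction protein (3.50 ± 0.18, adjusted p = 7.88e-10). Those that fell were the transcription factors Grhl3 (-3.36 ± 0.24, adjusted p = 2.39e-08) and Elf3 (-2.86 ± 0.12, adjusted p = 1.17e-10), both regulators of epithelial genes. Of the 15 that rose, 5 passed the filter only through EpiLC libraries, Marveld3 among them, and Grhl3 passed only through ESC libraries, so their direction is tied to the filter. The same held for the rises of 2 other cadherins (Cdh10 and Cdh12), 3 mesenchymal genes (Acta2 and Loxl2 among them) and 2 further EMT factors (Foxc1 and Snai3), and for the fall of Itgb3.

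The mesenchymal programme moved both ways, with 9 of 16 tested genes higher and 4 lower and a median of 1.27. Tagln, a smooth muscle actin-binding protein, rose from 3.33 ± 0.21 to 307 ± 26.9 CPM in total RNA (log2 6.52 ± 0.18, adjusted p = 3.71e-12). Acta2, smooth muscle actin, had 0 reads in the nascent ESC libraries and a mean of 6.76 ± 1.09 CPM in EpiLC total RNA. Loxl2, a matrix-modifying enzyme, rose (3.11 ± 0.24, adjusted p = 5.08e-08). Fn1, fibronectin, fell from 1038 ± 125 to 178 ± 20.7 CPM (-2.54 ± 0.14, adjusted p = 1.31e-09), and Ncam1 (-2.07 ± 0.13) and the integrin gene Itgb3 (-2.97 ± 0.51, adjusted p = 0.000137) fell with it.

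Of 14 further EMT factors 7 were tested, of which 3 rose and 1 fell, with a median of 0.36. Foxc1 (3.62 ± 0.43), Snai3 (2.90 ± 0.29) and Sox4 (2.71 ± 0.25) rose, and Klf8 fell (-2.06 ± 0.10), each with an adjusted p of at most 4.29e-06. Of the other intermediate filament and linker genes 3 of 9 rose and 1 fell, with a median of 0.29. The neural filament genes Nes (3.16 ± 0.27), Ina (3.10 ± 0.22) and Prph (2.95 ± 0.15) rose and the lamin gene Lmna fell (-1.53 ± 0.10, adjusted p = 7.84e-09). In stability, 3 of the 73 genes were called higher and 1 lower, where 1.24% of all genes tested were called higher and 0.305% lower. These were Tagln (2.13 ± 0.27, adjusted p = 0.00154), Grhl1 (2.09 ± 0.31, adjusted p = 0.00311), Tgfb2 (2.20 ± 0.48, adjusted p = 0.022) and Lmna (-1.17 ± 0.28, adjusted p = 0.0314), of which Grhl1 and Tgfb2 were named after their values were seen. The count of mesenchymal genes called higher in stability, 2, was 1 without ESC total replicate 1 or 2, EpiLC 4sU replicate 2 or EpiLC total replicate 3. The call of Lmna was lost when any 1 of 6 libraries was left out, replicates 1 and 2 of ESC 4sU, 1 and 2 of EpiLC 4sU, and 2 and 3 of EpiLC total.

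**Figure D5:**
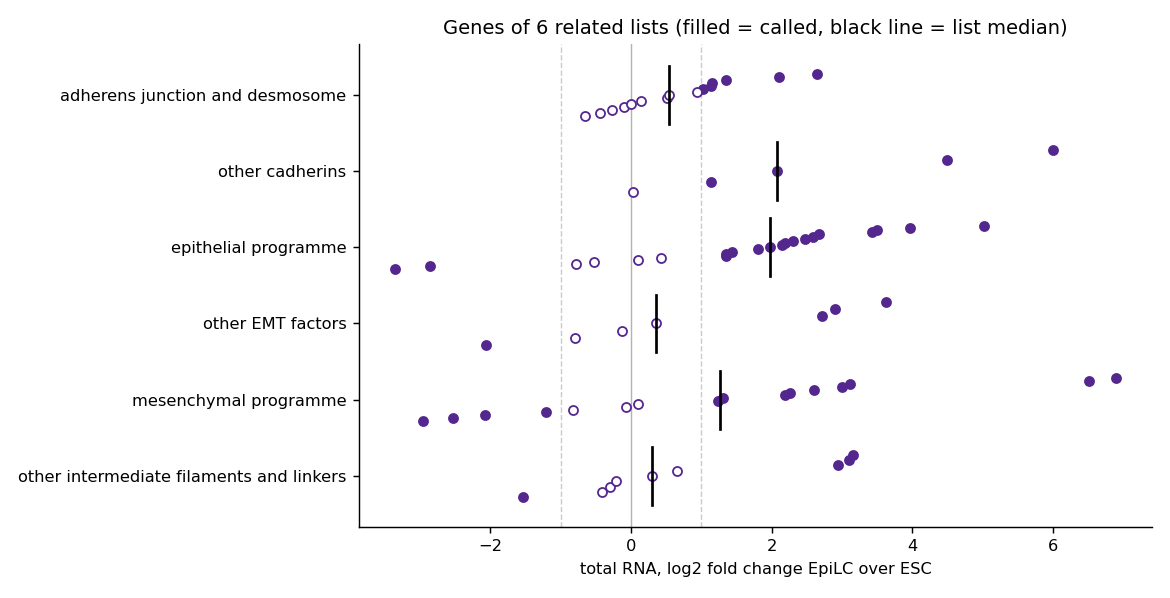
Log2 fold change of EpiLCs over ESCs in total RNA for the 73 tested genes of the 6 lists, 1 row per list, filled where called, with the list median as a black line and dashed lines at -1 and 1. The epithelial programme has 15 filled points to the right and 2 to the left, and the mesenchymal programme 9 and 4.

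The genes whose log2 levels over the 12 libraries followed Cdh1 most closely were Nefl, a neurofilament gene (Pearson r = 0.994), Cbfb, a partner of RUNX factors (0.992), and Pik3c2a, a lipid kinase (0.991). Nefl had mean levels of 32.6 CPM in nascent and 72.7 CPM in total RNA of ESCs, and 125 and 214 CPM in those of EpiLCs. For Cdh2 the closest were Gpcpd1 (0.861), Gm13078 (0.853) and Ralgapa1 (0.823). These values are descriptions over libraries that share cell type and assay, chosen as the highest among all genes tested.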

How the data were processed

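Nascent (4sU) and total RNA were each sequenced from ESCs and EpiLCs in 3 libraries per group. The authors trimmed single-end reads with cutadapt 1.14, aligned them to mm10 with STAR 2.5.3a keeping unique alignments, and counted reads over exons on the stated strand with featureCounts 1.5.3 and GENCODE M14, with ribosomal RNA genes removed. The deposited values are raw counts per gene. Reads that fit several copies of a gene equally well are therefore missing. Libraries were made with either of 2 stranded kits, and which library used which is not given in the sources used here. GENCODE M21 gave symbols for 51274 of 51467 gene IDs (99.6%), and 92 spike-in entries had 0 reads, so no absolute scale was available. The table's length column gave the exon length behind levels per kb.

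The 14731 genes that reached 3 CPM in 3 or more libraries were scaled by TMM and fitted with limma-voom over all 12 libraries as a means model of the 4 groups (limma 3.58.1, edgeR 4.0.16, R 4.3.3), close to the study's own model. A gene was called at a Benjamini-Hochberg adjusted p under 0.05 over all genes tested and an absolute log2 fold change over 1. Adjusted p-values are those of limma-voom where no other tool stands beside them. Replicate pairs differed by more than sampling noise (chi-square per degree of freedom 1.37 to 25.4), so none was counted as 1 sample. The script was tested on simulated data with known changes. Depth of 3097693 to 5385644 reads per nascent library limits the low genes. Reads carried no molecular identifiers, so read numbers cover counting error only.

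The members, gene lists, tests and alternatives were chosen with earlier results of these data known. Besides the members, the text names from each list up to 3 called rises and 3 called falls of largest size in total RNA, and the 3 genes nearest in pattern to Cdh1 and to Cdh2. Of the genes and sequences these rules gave, 2 are not reported here. Promoter windows came from RefSeq (GRCm38.p6) and were examined for Epcam, Krt8, Krt18, Vim, Snai1, Zeb2 and Twist1. Those of Cdh1, Cdh2 and Zeb1 were not examined, so nothing is said here of the E-box of the Cdh1 promoter. The alternatives changed the scaling, the filter, the threshold, the replicate block, the weights of samples or the tool (DESeq2 1.42.0 or edgeR's quasi-likelihood test), or left out libraries.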

Additional observations from a re-analysis of the deposited data

How the results depend on the processing

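The counts of members called higher kept within 1.5 times their values under each alternative run, and all calls of Epcam, Krt8, Krt18, Zeb1, Zeb2 and Twist1 in both kinds of RNA held. Of the members called lower in total RNA there were 2 in place of 1 when the adjusted p alone made the call or without both ESC libraries numbered 3, and 1 to 2 as each library was left out. Of those called lower in nascent RNA there were likewise 2 in place of 1 under the adjusted p alone or without both of those libraries, and 1 to 2 as each was left out. Of those called lower in stability there was 1 in place of 0 under DESeq2 (Krt8), under sample quality weights (Vim) and without both ESC libraries numbered 3 (Vim), and 0 to 1 as each library was left out. Each added gene by leaving out 1 library arose without an ESC replicate 3, and the cause was not tested. Signs turned for differences near 0. As each library was left out, total Snai1 ran from -0.91 to 0.0304 (0.0246 without EpiLC total replicate 1 and 0.0304 without ESC total replicate 2). Nascent Vim ran from -0.0143, without ESC 4sU replicate 3, to 0.52, and was -0.0152 without both ESC libraries numbered 3. In stability Cdh2 ran from -0.00998, without EpiLC 4sU replicate 1, to 0.29, and was -0.00788 without EpiLC total replicate 2, while Snai1 ran from -0.0928, without ESC total replicate 3, to 0.85. With at least 1 CPM in 3 libraries, 7 other cadherins and 5 further EMT factors were called higher in total RNA, in place of 4 and 3, and 3 further EMT factors lower, in place of 1. Without a filter 7 further EMT factors were called higher and 3 lower.

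Library numbers 1 to 3 recur in each group. Deviations from group means of same-numbered nascent and total libraries correlated at 0.174 to 0.409 in ESCs and 0.0194 to 0.0714 in EpiLCs, and 9 of 12 libraries correlated best with their own number in the other assay. The labels do not tie the numbers to the same RNA, and these values neither show nor exclude pairing by number. The fit behind the calls above did not use the numbers as pairs. With a replicate block of cell type and number, members called lower in stability went from 0 to 1, Vim (-1.04, adjusted p = 0.00038 in limma-voom), and all genes from 182 to 438 higher and from 45 to 90 lower. With a block of number alone no member call changed.

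Depth limits Snai1, with 2 to 22 reads per total library, Zeb2, with 6 to 16 reads per ESC library, and the keratins in nascent ESC RNA. Kits per library could not be set against the groups.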
